A study of Mus musculus with 12 samples.

Results

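The loci described here are Umod with the medium-chain acyl-CoA synthetase (Acsm) genes beside it on mouse chromosome 7, and Slc12a1 on chromosome 2. Members were all loci that overlap mm9 chromosome 7 from 126606379 to 126806029 or chromosome 2 from 124990000 to 125050000, where a locus is the sum of transcripts that overlap on 1 strand. This gave 7 of 26699 loci, 6 on chromosome 7 and 1 on chromosome 2. The chromosome 7 window was chosen by the difference in CPM between mutant low and control low libraries, in which its loci were low in mutant low cells, so this difference, and every comparison that shares its libraries, is given as a description without a test. Mutant high against control high cells compares no library of it and was tested. The fit estimated the spread over all 4 groups, so the p-values of this test also depend on the low libraries. The sample descriptions do give each high library the number of 1 low library of the same genotype, and whether such a number marks 1 animal is not stated.

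RNA was sequenced from cells of newborn (P0) mouse kidney that expressed Six2, the transcription factor of nephron progenitors, and carried an R26R-tdTomato reporter. The sample titles divide the 12 libraries into control low (n = 4), control high (n = 2), mutant low (n = 4) and mutant high (n = 2) expression. They do not say which signal was low or high, the strain, or the allele that makes a cell mutant. The descriptions of all 12 samples, those titled mutant included, begin with WT1, which is not explained, and the groups here follow the titles. The series title names Eed, a core subunit of Polycomb repressive complex PRC2. What drove the reporter is not given in the sources used here, nor is it said whether each library is a different animal. The p-values hold only for the spread among these libraries, which may be technical.

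Umod encodes uromodulin, the most abundant protein of normal urine, and Slc12a1 encodes NKCC2, the apical sodium-potassium-chloride cotransporter that loop diuretics block. Both are defining genes of the thick ascending limb of the loop of Henle, a late product of nephron differentiation. Acsm genes encode mitochondrial enzymes that activate medium-chain fatty acids by joining them to coenzyme A, and Acsm1, Acsm2, Acsm3 and Acsm5 are known from proximal tubule. Umod and the Acsm genes are thus neighbours in the genome but belong to different nephron segments.

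In mm9, Umod lies on the minus strand of chromosome 7 from 126606379 to 126622769. Pdilt, a testis-specific relative of protein disulfide isomerase, follows on the same strand from 126630100 to 126666996. Acsm5 (126669778 to 126686874), Acsm2 (126697853 to 126744208) and Acsm1 (126761341 to 126806029) are on the plus strand. Gm19950, an annotated antisense RNA without a known role, runs on the minus strand from 126751194 to 126785957 and overlaps Acsm1. Slc12a1 occupies the plus strand of chromosome 2 from 124978335 to 125055737. The library kit does not mark strand by default, so fragments from the stretch that Gm19950 and Acsm1 share cannot be told apart.

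The promoters are shown because the neighbours belong to different segments, and because the fragments of Slc12a1 and Acsm2 were assigned to more than 1 start. Each sequence is the 250 bases before a RefSeq start (GRCm38.p6), read 5′ to 3′ on the strand of the gene, and capitals mark matches to the half-site of HNF1, a transcription factor of tubule epithelia. They lie at chr7:119479263-119479512 (Umod, minus strand), chr2:125152350-125152599 (Slc12a1, plus strand), chr7:119554090-119554339 (Acsm2, first start, plus strand) and chr7:119561458-119561707 (Acsm2, second start, plus strand).
Umod: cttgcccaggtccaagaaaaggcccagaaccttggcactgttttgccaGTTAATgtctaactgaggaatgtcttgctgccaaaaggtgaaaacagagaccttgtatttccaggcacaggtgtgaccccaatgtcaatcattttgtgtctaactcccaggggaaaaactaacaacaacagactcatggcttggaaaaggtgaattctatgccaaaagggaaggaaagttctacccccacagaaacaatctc
Slc12a1: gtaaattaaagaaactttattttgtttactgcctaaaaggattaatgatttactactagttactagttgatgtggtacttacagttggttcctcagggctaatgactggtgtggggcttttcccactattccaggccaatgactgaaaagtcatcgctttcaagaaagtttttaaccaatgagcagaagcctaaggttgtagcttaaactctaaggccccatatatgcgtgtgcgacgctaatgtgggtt
Acsm2 first start: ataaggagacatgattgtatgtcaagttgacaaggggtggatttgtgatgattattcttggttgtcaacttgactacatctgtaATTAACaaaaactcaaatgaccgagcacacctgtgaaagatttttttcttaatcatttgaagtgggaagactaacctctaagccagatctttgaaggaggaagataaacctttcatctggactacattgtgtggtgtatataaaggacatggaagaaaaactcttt
Acsm2 second start: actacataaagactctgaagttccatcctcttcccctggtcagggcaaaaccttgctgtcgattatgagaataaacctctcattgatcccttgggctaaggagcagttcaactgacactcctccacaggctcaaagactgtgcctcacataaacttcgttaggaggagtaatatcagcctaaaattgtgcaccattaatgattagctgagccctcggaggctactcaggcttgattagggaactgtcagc

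All 7 members had an entry in the RefSeq promoter table, Acsm2 with 2. Of 3 motifs searched on both strands, the HNF1 half-site GTTAAT occurred once in the Umod promoter, at position -202 counted from the start, and once in the promoter of the first Acsm2 start, on the other strand at position -166. The table holds 32851 promoters, and 6.43% of them have this motif in a window of the same length. The HNF4 element CAAAGTCCA (0.384% of promoters) and the element of estrogen-related receptors TCAAGGTCA (0.387%) occurred in none of the 8 promoters. No 2 matches overlapped.

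The deposited estimates divide the fragments of a locus among transcripts with different starts. At Acsm2 the second start, 7368 bases inside the first, took at least 92.7% of the fragments, by 1 of its transcripts, in each of the 8 libraries outside mutant low. The transcript from the first start took at most 0.00199% in those libraries. The promoter at the second start holds none of the 3 motifs. At Slc12a1 a transcript starting 1131 bases inside the RefSeq start shown took 94.1% to 98.8% of fragments in the 4 high libraries. In control low cells it took 97.3%, 93.0%, 0.0408% and 93.9%. A transcript from the RefSeq start took 87.9% of the 21 fragments in control low replicate 3. The split between transcripts with the same ends was not stable either: at Umod the share of 1 of 2 such transcripts ran from 8.99% to 99.9% in control low cells. Levels below are therefore sums over each locus.

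Libraries held 4549011 to 12365078 fragments. Chromosome M took 4.51% and 10.3% of fragments in control high cells, and 0.494% to 1.96% in the other 10 libraries. Levels below are counts relative to the library total (CPM) scaled by the TMM method of edgeR. All 7 members passed the filter on low counts and were among the 13749 loci of the fit. Eed had means of 14.1 ± 1.09 (control low) and 8.44 ± 2.56 (mutant low) CPM (SD, n = 4), and of 8.9 ± 0.238 (control high) and 6.00 ± 1.79 (mutant high) CPM (SD, n = 2). Eed was not called in mutant high against control high cells (edgeR adjusted p = 0.291). The Eed allele of the mutant libraries is not given in the sources used here, so a level over the whole locus need not check the labels. Six2 had means of 1703 ± 282 (control low) and 793 ± 116 (mutant low) CPM (SD, n = 4), but only of 40.1 ± 33.0 (control high) and 105 ± 11.2 (mutant high) CPM (SD, n = 2). The low libraries thus carried the progenitor marker at a far higher level than the high libraries, although all were sorted for Six2.

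Umod was high in both high populations and lowest in mutant low cells. Control high libraries held 683 and 1038 CPM, and mutant high libraries 536 and 503 CPM. In control low cells the 4 libraries held 53.4, 527, 148 and 146 CPM, and in mutant low cells they held 42.9, 3.35, 16.4 and 11.3 CPM. Every mutant low library was below every control low library, but control low replicate 2 was as high as the mutant high libraries, so these neighbours in the order did not differ beyond their spread. In the test of mutant high against control high cells the fitted log2 change of Umod was -0.73 (SE 1.08, 95% interval -3.14 to 1.68, edgeR adjusted p = 0.659). It was not called, and the interval includes 0. This interval overlaps those of Acsm5 (-3.89 to -1.48), Acsm2 (-4.63 to -2.08) and Acsm1 (-4.68 to -1.98). No edgeR test compared these changes with each other. Without TMM scaling the ranges overlapped, 525 and 805 CPM against 596 and 526 CPM in mutant high libraries.

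Slc12a1 had the same order of group means as Umod and was at or near 0 in mutant low cells. Control high libraries held 62.0 and 128 CPM, mutant high libraries 25.3 and 14.5 CPM, and these did not overlap. Control low libraries held 0.819, 8.97, 2.27 and 2.05 CPM, and mutant low libraries held 0.808, 0, 0.444 and 0.0812 CPM. The lowest control low and the highest mutant low library each rested on 7 fragments, and without TMM scaling their order turned, at 0.865 and 0.939 CPM. The library at 0, mutant low replicate 2, allows up to 0.504 CPM (3 fragments of its unscaled total). In mutant high against control high cells Slc12a1 had a fitted log2 change of -2.25 (SE 0.87, 95% interval -4.16 to -0.33, edgeR adjusted p = 0.0779), and was not called. Without control high replicate 2 the change was -1.64. It was called in edgeR's test without control low replicate 1 (adjusted p = 0.0478), without control low replicate 2 (adjusted p = 0.0169) and when only the high libraries entered the fit (adjusted p = 0.00453).

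Acsm2, the Acsm gene with the highest level per length in control high cells, separated the groups without overlap. It reached 801 and 618 CPM in control high cells and 69.5 and 69.4 CPM in mutant high cells. The mutant high mean was 0.0978 of the control high mean. Control low libraries held 16.5, 19.0, 3.46 and 24.4 CPM, and mutant low libraries 0.808, 1.22, 1.0 and 0.893 CPM. The mutant low values rested on 7 to 11 fragments a library. Acsm2 fell in mutant high against control high cells by a log2 change of -3.35 (SE 0.59, 95% interval -4.63 to -2.08, edgeR adjusted p = 0.00139).

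Acsm1 and Acsm5, paralogs of Acsm2, had the same order of groups. Acsm1 had 79.5 and 85.9 CPM in the control high and 8.89 and 7.51 CPM in the mutant high libraries, 2.81, 4.62, 0.648 and 2.05 CPM in the control low and 0.346, 0, 0 and 0.244 CPM in the mutant low libraries. Acsm5 had 82.8 and 43.1 CPM in the control high and 9.76 and 9.85 CPM in the mutant high libraries, 2.46, 4.21, 0.757 and 1.72 CPM in the control low and 0, 0.152, 0 and 0.0812 CPM in the mutant low libraries. No 2 groups overlapped for either gene. The mutant low group held 2 fragments of Acsm5 in all, and the ratio of control low to mutant low was 39.7 with a counting interval of 10.6 to 334. In mutant high against control high cells Acsm1 fell by 3.33 on the log2 scale (SE 0.63, edgeR adjusted p = 0.00186). Acsm5 fell by 2.68 (SE 0.56, edgeR adjusted p = 0.00324), with a log2 change of -2.10 without control high replicate 1 (edgeR adjusted p = 0.0445).

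Gm19950 fell together with the Acsm genes in the high populations. Control high libraries held 169 and 105 CPM and mutant high libraries 10.3 and 14.5 CPM, a log2 change of -3.47 (SE 0.62, edgeR adjusted p = 0.0014). Control low libraries stood at 1.40, 1.36, 0.757 and 1.15 CPM, and mutant low libraries at 1.04, 0.152, 0.111 and 0 CPM, so these ranges overlapped through mutant low replicate 1. Without that library the fitted log2 change in low cells, given without a test, was -3.72 instead of -1.86. Its fragments exceeded those of Acsm1 by a ratio of 1.23 to 2.13 in control high and 1.16 to 1.93 in mutant high cells, and ran from 0.294 to 1.17 in control low cells. Reads of Acsm1 counted on the minus strand, or the reverse, cannot be told apart from these values. Pdilt stayed near the floor, with 1.66 and 3.97 CPM (control high), 1.26 and 0.862 CPM (mutant high), 0.216 to 0.951 CPM (control low) and 0 to 0.346 CPM (mutant low). It was not called in the high cells (log2 change -1.36, SE 0.87, edgeR adjusted p = 0.264), and the change was -0.64 without control high replicate 2.

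**Figure D1:**
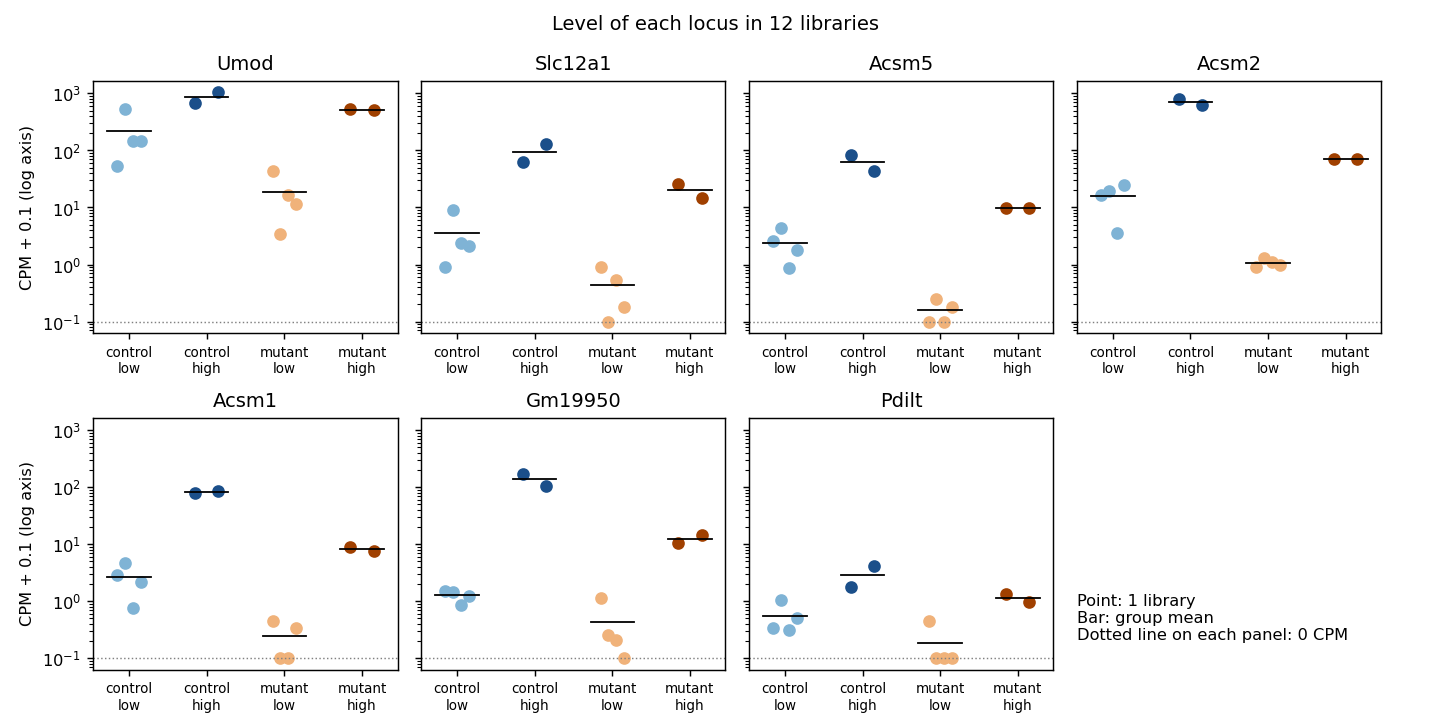
Level of each of the 7 loci in 12 libraries, as CPM + 0.1 on a log axis, by group. Each point is 1 library, bars are group means and the dotted line marks 0 CPM. Umod in mutant high cells (536 and 503 CPM) sits close to control high cells (683 and 1038 CPM), whereas Acsm2 drops from 801 and 618 to 69.5 and 69.4 CPM.

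Of the 7 members, 4 were called in mutant high cells in edgeR's test, all lower, namely Acsm5, Acsm2, Acsm1 and Gm19950. Over all loci tested, 11.2% were called lower and 16.3% higher, 27.5% in all, and the median log2 change was 0.08. The 4 called members share neighbours, and Acsm1 and Gm19950 may share reads, so they are not 4 independent cases. With TMM scaling all 7 members had lower CPM in both mutant high libraries than in either control high library, as did 31.2% of loci tested. Without it the ranges of Umod and of Pdilt overlapped. Unscaled Pdilt was 1.28 and 3.08 CPM in control high and 1.4 and 0.9 CPM in mutant high libraries, on 7 to 14 fragments each. The call rests on locus sums: with each transcript as its own feature, the transcript with the most fragments over the 12 libraries was called at 1 member, Acsm2, and not at Acsm1, Acsm5 and Gm19950 (edgeR adjusted p = 0.356, 0.0947 and 0.116). At Acsm1 that was the second of 2 transcripts with the same ends, which held only 40.2% and 24.3% of the fragments in control high cells. The first took 59.8% and 75.7% there, 228 and 229 fragments, and at most 0.261% in every other library. It was called lower in mutant high cells, where its estimates were below 1 fragment (edgeR adjusted p = 0.0163).

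**Figure D2:**
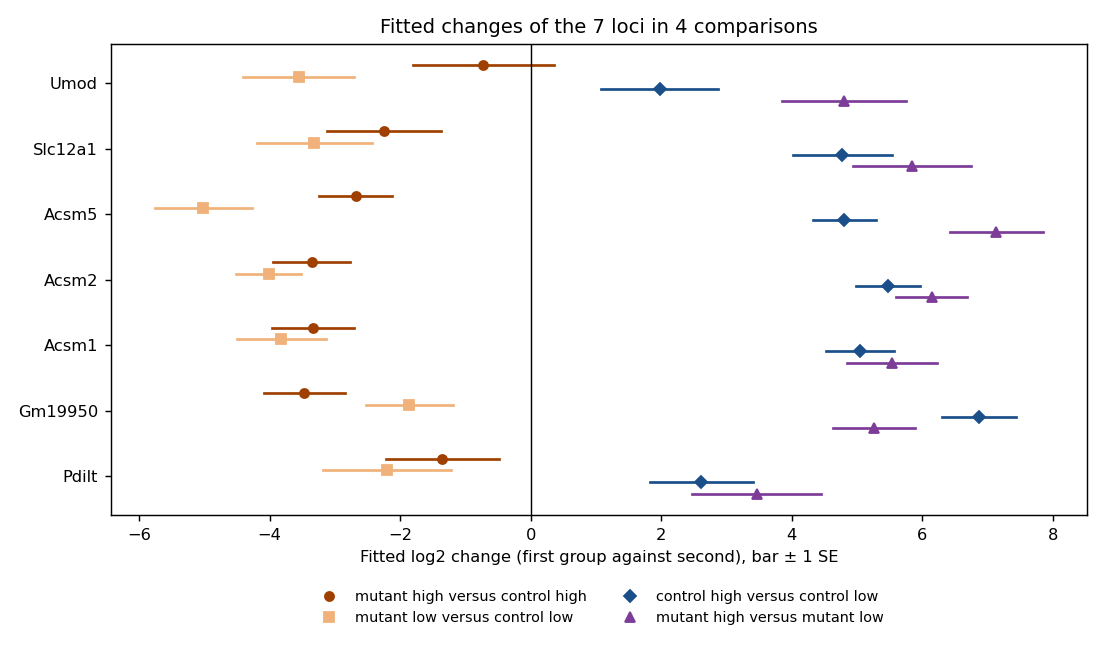
Fitted log2 change of each locus in 4 comparisons, with bars of 1 SE either way. Only mutant high against control high (circles) was tested. Umod (-0.73) lies nearest 0 there, and Acsm5, Acsm2, Acsm1 and Gm19950 lie between -2.68 and -3.47.

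The high populations held more of every member than the low populations of the same genotype, which is given without a test. In control cells the fitted log2 change of high against low was 1.98 (SE 0.89) for Umod, 4.78 (SE 0.75) for Slc12a1, and between 4.81 and 5.48 for the 3 Acsm genes. Gm19950 had the largest value, 6.87 (SE 0.56), and Pdilt had 2.62 (SE 0.79). Without control low replicate 2 the change was 2.89 for Umod and 5.76 for Slc12a1, and without control high replicate 2 it was 1.94 for Pdilt. In mutant cells the same change was 4.81 (SE 0.95) for Umod and 5.85 (SE 0.91) for Slc12a1, and between 5.54 and 7.14 for the Acsm genes. Without mutant low replicate 1 it was 5.63 for Umod and 6.67 for Slc12a1. With TMM scaling all 7 members had no overlap between populations in either genotype, as had 30.7% of loci higher in control high cells and 26.7% higher in mutant high cells. Without it the Umod ranges overlapped in control cells, at 525 CPM in control high replicate 1 and 572 CPM in control low replicate 2. In these sorted pools, fewer cells of a type and less RNA per cell cannot be told apart.

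In low cells, the comparison by which the window was noticed, the fitted log2 change of mutant against control was -3.56 (SE 0.85) for Umod, -3.31 (SE 0.89) for Slc12a1, -5.02 (SE 0.74) for Acsm5, -4.02 (SE 0.50) for Acsm2 and -3.82 (SE 0.69) for Acsm1. Gm19950 had -1.86 (SE 0.67) and Pdilt -2.21 (SE 0.98). Several of these values rest on 1 library. Without mutant low replicate 1 they were -3.72 (Gm19950), -4.91 (Pdilt), -4.37 (Umod) and -4.13 (Slc12a1). Without control low replicate 2 they were -2.64 (Umod) and -2.33 (Slc12a1). The ranges of 5 of the 7 members did not overlap, against 6.69% of loci tested, and nothing is read from this count. The mutant effect in high cells minus that in low cells was 2.83 (SE 1.36) on the log2 scale for Umod and 2.33 (SE 0.98) for Acsm5. With 1 library left out at a time Umod ranged from 1.91 (without control low replicate 2) to 3.62 (without mutant low replicate 1), and the order of both genes turned without control high replicate 1 (2.57 for Umod, 2.91 for Acsm5) and without mutant low replicate 2 (2.49 and 2.88). It was 1.07 (SE 1.22) for Slc12a1, 0.66 (SE 0.71) for Acsm2 and 0.49 (SE 0.82) for Acsm1, each within 1 SE of 0. Whether these effects differ between populations was not tested.

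**Figure D3:**
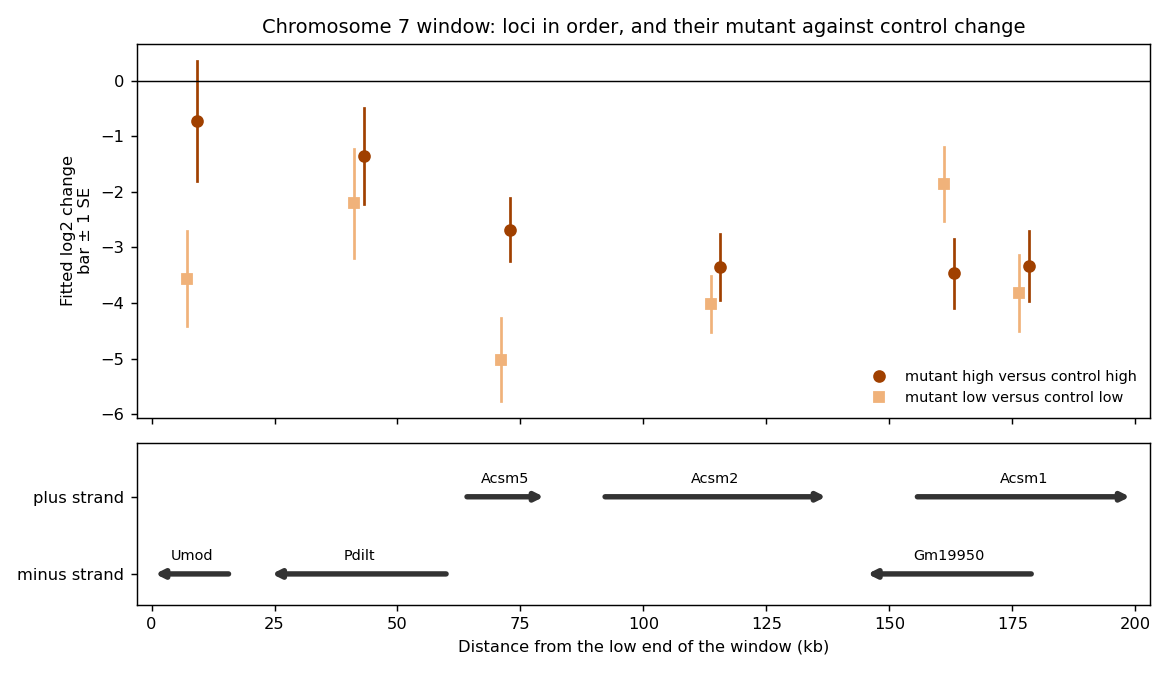
The 6 loci of the chromosome 7 window in order, with the fitted log2 change of mutant against control in high (circles) and low cells (squares) above and their strand below, bars 1 SE either way, distance in kb from the low end of the window. In high cells the change runs from -0.73 at Umod to -3.47 at Gm19950, and in low cells from -5.02 at Acsm5 to -1.86 at Gm19950 (-3.72 without mutant low replicate 1).

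Ratios between members within a library do not depend on how libraries are scaled. The Umod to Acsm2 ratio of fragments was 0.852 and 1.68 in control high and 7.72 and 7.25 in mutant high cells, a 6.25-fold difference of geometric means. With 2 libraries against 2, the exact two-sided permutation p is 0.333, the smallest this design allows, and it remains 0.333 after adjustment over 2 ratios. In control low cells the same ratio was 3.24, 27.7, 42.9 and 5.97, and in mutant low cells 53.1, 2.75, 16.4 and 12.6. Among the 8 libraries outside mutant low, the ratio of the thick limb gene to its Acsm neighbour covered a 50.4-fold range. Acsm2 to Acsm1, both proximal, ranged 2.89-fold over the same libraries, from 4.12 to 11.9, and Acsm2 to Acsm5 ranged 3.16-fold.

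Umod and Slc12a1 kept a near-constant ratio among control low libraries although their levels did not. The ratio of fragments was 65.3, 58.8, 65.3 and 70.9, a 1.21-fold range, while Umod itself spread 9.87-fold. Counting intervals of the 4 ratios all overlapped, from 31.4 to 163 for the shallowest. In control high cells the ratio was 11.0 and 8.12, and in mutant high cells 21.2 and 34.7, a 2.87-fold difference of geometric means (exact permutation p = 0.333, the smallest possible with 2 against 2). Relative to Umod, Slc12a1 fragments were thus most frequent in the control high libraries and least frequent in the control low libraries, with the mutant high libraries between. In mutant low cells, left out of this order, the ratio was 53.1, 37.0 and 139 where Slc12a1 was detected, on 7, 4 and 1 fragments.

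**Figure D4:**
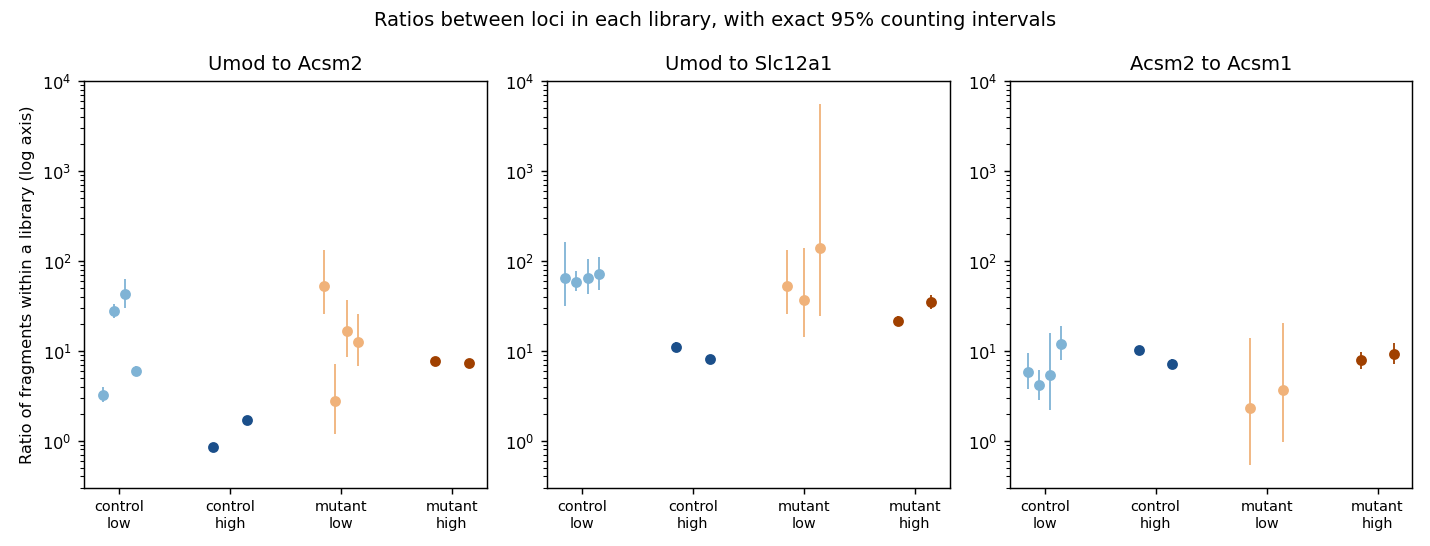
Ratio of fragments between 2 loci within each library, on log axes, with exact 95% counting intervals. Points are libraries and those without a fragment in the denominator are left out. Umod to Slc12a1 lies between 58.8 and 70.9 in all 4 control low libraries, and Umod to Acsm2 rises from 0.852 and 1.68 in control high to 7.72 and 7.25 in mutant high cells.

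Levels of different genes can be compared per length of transcript. In control high cells the mean was 328 CPM per kb for Umod, 105 for Acsm2, 39.7 for Acsm1, 25.2 for Acsm5 and 20.4 for Slc12a1. In mutant high cells Umod stood at 198 CPM per kb and the others at 10.3 (Acsm2), 4.29 (Slc12a1), 3.94 (Acsm1) and 3.93 (Acsm5). With these lengths Umod led the members in both populations, by a wider margin in mutant high cells. The lengths were those of the matched reference transcripts, 2625 bases for Umod, 6738 for Acsm2, 2494 for Acsm5 and 2083 for Acsm1. A shorter transcript of Acsm2 would raise its level per length, and other lengths were not tried. Of the 50-base words of the Umod transcript, 15.3% also occur in Gm44588, an antisense transcript. Slc12a1, Acsm5 and Acsm1 shared none with another gene. Acsm2 shared 0.673% of its words, with 275 other genes.

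At the low end, Gp2, a paralog of Umod just outside the window, had means of 0.891 (control low), 1.71 (control high), 0.162 (mutant low) and 1.26 CPM (mutant high). The 2 other Acsm genes beyond the high end held few fragments. Acsm4 held 0 to 2 fragments in any library and Acsm3 0 to 8, and neither passed the filter. Thumpd1, a gene for an RNA-binding protein that lies between them, had means of 306 (control low), 193 (control high), 291 (mutant low) and 306 CPM (mutant high). Its ranges in control high (147 to 240 CPM) and mutant high cells (220 to 391 CPM) overlapped.

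Lists of genes of the 2 segments are given beside the members, and they include Umod, Slc12a1, Acsm1, Acsm2 and Acsm5. These lists were chosen with earlier results of these data known, so their counts are not independent support. Of 10 genes reported from the thick ascending limb list, 9 were matched and tested. In mutant high against control high cells 2 were called, both lower, and the median log2 change was -1.86, beside 0.08 over all loci. Without Umod and Slc12a1, 2 of 7 were called lower, with the same median. Of all loci tested, 11.2% were called lower. The called genes were Egf, the epidermal growth factor precursor (-2.35, SE 0.46, edgeR adjusted p = 0.00212), and Casr, the calcium-sensing receptor (-1.57, SE 0.53, edgeR adjusted p = 0.0412). All 9 fitted changes were below 0. Cldn16, the tight-junction protein of magnesium reabsorption, and Bsnd, which encodes barttin, had values of -2.42 (SE 0.84) and -2.08 (SE 0.73) and were not called (edgeR adjusted p = 0.0544 and 0.0504).

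The count of called thick limb genes depended on the libraries in the fit. It was 7 when only the high libraries entered, 6 without control low replicate 2, 5 without control low replicate 1, 4 without mutant low replicate 1, and 1 without either control high library, either mutant high library or mutant low replicate 4. It was 4 with RLE scaling, with the trend on locus span removed, with the replicate block or with DESeq2. All 9 fitted changes stayed below 0 under each of the 21 alternatives, with medians from -2.16 to -1.43.

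The proximal tubule list had 12 genes, all matched, of which 11 were tested. In the same comparison 11 were called lower, and the median of their log2 changes was -3.02. Without the 3 members, 8 of 8 were called lower, beside 11.2% of all loci tested. This list too was chosen with earlier results of these data known, so the count is a description. Miox, the enzyme that opens the ring of myo-inositol, had the largest fall, from 4302 ± 588 to 193 ± 71.3 CPM (SD, n = 2; log2 change -4.48, SE 0.84, edgeR adjusted p = 0.00252). Lrp2, the endocytic receptor megalin, went from 1799 ± 138 to 273 ± 45.5 CPM (SD, n = 2; -2.72, SE 0.56, edgeR adjusted p = 0.00335). Over the same 21 alternatives 8 to 11 proximal genes were called lower. The falls of Acsm1 and Acsm2 (-3.33 and -3.35) were larger than the median of this list and that of Acsm5 (-2.68) was smaller. The change of Umod (-0.73) was closer to 0 than all but 1 of the thick limb list. No test compared the 2 lists.

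**Figure D5:**
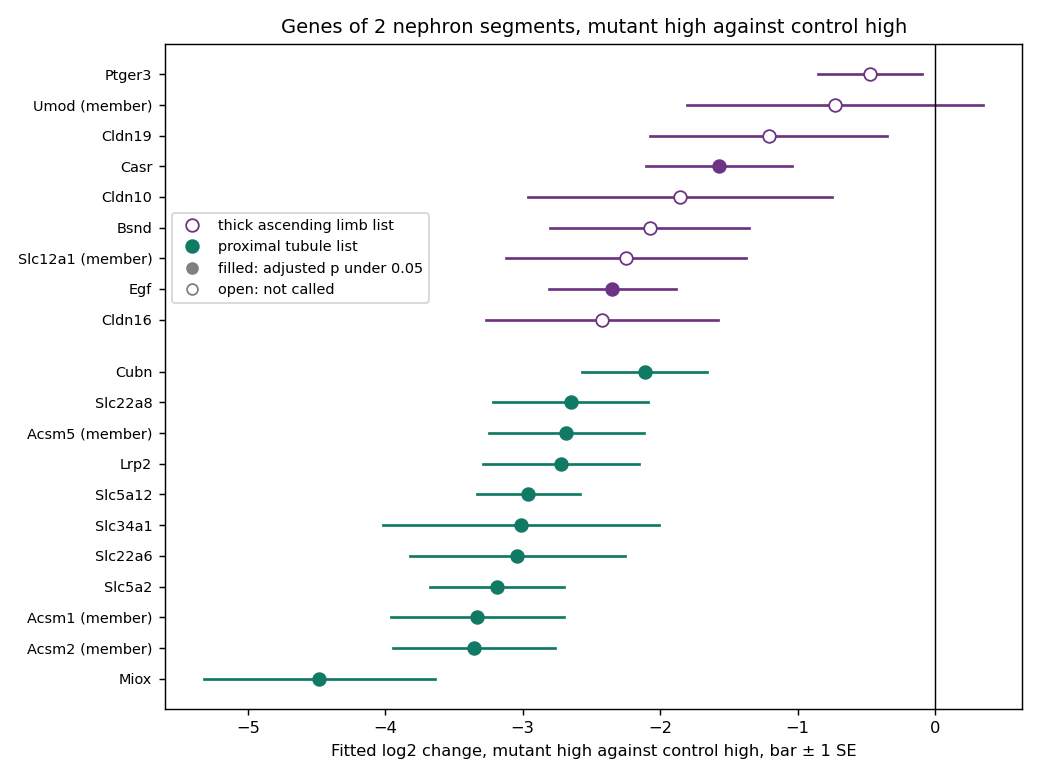
Fitted log2 change of mutant high against control high cells for 9 thick ascending limb and 11 proximal tubule genes, bars 1 SE either way; filled points were called at an edgeR adjusted p under 0.05 and open points were not. All 20 points lie below 0; 2 of 9 thick limb and 11 of 11 proximal genes are filled.

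Some genes from lists of other cell types were called as well, but none from the endothelial and blood lists. Summed over each list, nephron progenitor genes held 21.8 to 67.6 CPM in the control high and 105 to 120 CPM in the mutant high libraries, and of 4 tested 1 was called higher, Six2 (1.38, SE 0.45, edgeR adjusted p = 0.0331). Of 4 genes of ureteric bud and collecting duct, Ret and Wnt11, a receptor and a ligand of ureteric bud tips, were called higher, and Calb1, a calcium-binding protein of distal tubule and collecting duct, was called lower. Aqp2 was not called (-1.43, SE 0.62, edgeR adjusted p = 0.104). The sum of the 4 was between 2955 and 3912 CPM in the control high libraries and between 371 and 789 CPM in mutant high cells. Calb1 made up most of this sum, with 2808 to 3762 CPM and 234 to 665 CPM, so the sum does not describe Ret and Wnt11. The 2 stroma genes summed to between 15.2 and 21.8 CPM in the control high libraries and between 59.0 and 95.9 CPM in mutant high cells, with Pdgfra called higher. The 3 podocyte genes summed to between 19.3 and 38.7 CPM in the control high libraries and between 20.8 and 94.0 CPM in mutant high cells, and Wt1, 1 of 2 tested, was called higher. The 2 endothelial genes (at most 10.5 CPM in a high library) and the 2 blood genes (at most 18.0 CPM) had edgeR adjusted p from 0.276 to 0.746. The part of these cell types in the changes of the members was not tested.

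Loci most alike to Umod, Slc12a1 and Acsm2 over the 12 libraries are given as a description. Likeness is the Pearson r of log2(CPM + 1). Kng2, a kininogen gene, had r = 0.968 with Umod. For Acsm2 the 2 loci with the highest r were Slc22a8 and Slc17a1, anion transporters of proximal tubule (both r = 0.991). For Slc12a1 they were a locus on chromosome 5 from 51845487 to 51945160, which was not matched to a name (r = 0.991), and Aldh1l1, an enzyme of folate metabolism (r = 0.99). Among the members, Acsm2 had r = 0.985 with Acsm5 and 0.979 with Acsm1, and Umod had r = 0.898 with Slc12a1 and 0.851 with Acsm2. These values describe 12 libraries that share 4 groups, and the points of a group share its difference from the others.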

How the data were processed

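RNA of 12 sorted samples was read from 1 deposited table that holds, for each transcript, estimated counts of fragments without normalization; its title calls them CuffDiff2 raw fragments, per the file headers. Bowtie2, HTSeq, DESeq2 and the build mm9 are listed, without roles, per the submitters' processing notes. Positions are printed as deposited, and whether starts count from 0 or 1 is not stated. Transcripts overlapping on 1 strand were summed to 26699 loci and rounded; all 84 member values were whole within 0.01. The planned feature was this sum.

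The table gives no gene names. Members and the listed genes were named by matching strand, transcript span and the spacing of neighbours to GENCODE M21 (GRCm38), with no coordinate carried over: members within 5% of span and 500 bases of offset, listed genes with at least 5 neighbours and 50% of those within 1 Mb. Of 43 genes, the 42 of the lists and Eed, 39 were matched, and the others are not analysed here; 2 further listed genes are not reported here, in any comparison. This match of the listed genes was made after the table had been seen. Members and lists were chosen with earlier results of these data known. Outside the windows, and with that exception, the 2 loci with the highest r to Umod, Slc12a1 and the most abundant Acsm gene were named.

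The test was the quasi-likelihood test of edgeR 4.0.16 in R 4.3.3 on counts (TMM, filterByExpr, robust, 4 groups in 1 fit), two-sided, with Benjamini-Hochberg adjustment over 13749 loci and a threshold of 0.05. It was also run on simulated counts with the same spread at every locus, which does not check it at the spread of these libraries. DESeq2 1.42.0, other scalings, filters, features, blocks and left-out libraries were alternatives. Title numbers were not used to pair the libraries in the main fit. Correlations of deviations with the same title number ran from -0.14 to 0.433, which cannot settle whether the numbers pair them. In control cells title and description numbers tie different libraries. Numbers in the descriptions tie each high library to a low one of its genotype; these correlations ran from -0.079 to 0.224, and a block by them was an alternative for high against low cells. Intervals on ratios and the limit of 3 fragments cover counting error only.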

Additional observations from a re-analysis of the deposited data

Results flagged for a closer look

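In the groups of 4 libraries, 14 sets of member values were examined for a library far from the others, and 2 stood apart by Dixon's 95% criterion, both in mutant low replicate 1. The 5% level of this criterion is meant for continuous values. Both flagged sets are counts near 0, so it does not hold for them. Gm19950 stood at 1.04 CPM (9 fragments) there, against 0 to 0.152 CPM (0 or 1 fragment) in the other mutant low libraries. Pdilt stood at 0.346 CPM (3 fragments) there, and the other 3 held no fragment. With the others at 0, any fragment in 1 library is flagged.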

How the results depend on the processing

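Acsm5, Acsm2, Acsm1 and Gm19950 were called lower in mutant high against control high cells under every alternative but the use of single transcripts, where the transcript with the most fragments over the 12 libraries was called at 1 member (Acsm2) and 2012 transcripts in all instead of 3780 loci. These transcripts had log2 changes of -1.66 (Acsm1, whose other transcript held most fragments in control high cells and was called lower), -2.59 (Acsm5) and -3.45 (Gm19950); the other comparisons moved to 3.40 for Acsm1 and -6.84 for Acsm5 (control high and mutant low, each against control low), 6.54 for Acsm2 and 8.76 for Acsm5 (mutant high against mutant low), and 2.19 for Acsm1 and 4.25 for Acsm5 (difference of mutant effects). Umod was not called under any alternative, with log2 changes of -0.99 to -0.41. Slc12a1 was called with only the high libraries in the fit (-2.25, edgeR adjusted p = 0.00453).

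With the title numbers as a replicate block, 4454 loci and the same number of members, 4, were called, and Umod had -0.70 (edgeR adjusted p = 0.719). Whether the title numbers pair the libraries was not settled. The block moved the change of mutant high against mutant low cells to 4.98 for Acsm1, 5.89 for Acsm2 and 6.54 for Acsm5. For Acsm5 this change was 6.96 with the block by description number and 7.49 with DESeq2.

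With 1 library left out at a time, between 1996 and 4010 loci were called, with 2450 and 1996 without control high replicates 1 and 2 and 2164 without mutant high replicate 2; the lone library left is assumed to vary like the others. Umod ranged from -4.37 to -2.64 in low cells, from 1.65 to 2.89 for control high against control low, from 4.47 to 5.63 for mutant high against mutant low and from 1.91 to 3.62 for the difference of effects. Slc12a1 ranged from -2.69 to -1.64 in high cells, from -4.13 to -2.33 in low cells, from 5.37 to 6.67 for mutant high against mutant low and from 0.087 to 1.87 for the difference of effects. For mutant high against mutant low, Acsm1 ranged from 5.16 to 6.10 and Acsm5 from 6.80 to 7.69, and the difference of effects of Acsm5 from 1.89 to 2.91. The difference of effects of Gm19950 ranged from -2.13 to 0.22 and turned from -1.61 to 0.22 without mutant low replicate 1; the cause was not tested. In low cells Gm19950 ranged from -3.72 to -1.34 and Pdilt from -4.91 to -1.67. Depth limits the mutant low values, which rest on 0 to 9 fragments a library for Slc12a1, Acsm1, Acsm5, Gm19950 and Pdilt. For Acsm2 they rest on 7 to 11 fragments a library.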
